A study of Mus musculus with 19 samples.

Results

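The expression of 26 genes of cholesterol handling was followed in mouse liver that expressed a transgenic c-Jun~Fra2 dimer, a linked form of 2 subunits of the AP-1 transcription factor. The 26 members were taken by symbol from a count table of 55421 genes, and all 26 were found. They comprised 18 enzymes of cholesterol synthesis, 3 regulators of that pathway, 2 carriers of cholesterol and 3 enzymes that attach a fatty acid to it. RNA came from livers of adult male C57BL/6 mice, and the labels call the cells mostly hepatocytes in controls and 2-month mutants and mostly transformed hepatocytes in the 9-month mutant samples. In the mutants the transgene was switched on by doxycycline removal at weaning, at 3 weeks of age, and livers were taken 2 months or 9 months later. Controls were littermates that went through the same doxycycline removal. There were 6 controls and 3 mutants at 2 months. At 9 months there were 3 controls and 3 mutants, and each mutant gave 1 sample free of visible tumour and 1 tumour, except that mutant 1 gave 2 tumours. The promoter that drives the transgene and the alleles of the controls were not given in the sources used here.

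Cholesterol is built from acetyl-CoA through mevalonate, isoprenoid units, squalene and lanosterol, at the cost of much oxygen and reducing power, and the liver makes it for its own membranes, for lipoproteins and for bile acids. The supply is set by feedback: when sterols are scarce, the escort protein SCAP carries the precursor of SREBP2 from the endoplasmic reticulum to the Golgi, where it is cut to release a transcription factor that binds promoters of nearly every enzyme of the pathway. When sterols are plentiful, INSIG proteins hold SCAP back, and surplus cholesterol is stored as esters or leaves the cell.

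Library totals ran from 14294611 to 22062341 counts. Fosl2, which encodes Fra2, was at 12.5 ± 3.70 CPM (counts scaled to library size with TMM factors, SD, n = 6) in 2-month controls and 780 ± 127 (SD, n = 3) in 2-month mutants, and at 13.9 ± 5.38, 876 ± 78.4 and 637 ± 68.9 (SD, n = 3 animals each) in 9-month controls, tumour-free tissue and tumours. Some libraries stood apart. In 2-month control 3, 17 of the 18 enzymes had their highest level among the 6 controls, and the tumour of mutant 2 had the lowest level of all 19 libraries for 16 of the 18 enzymes. Such counts were not made over all genes. The summed level of 8 immediate early genes was 2963 CPM in 9-month control 1, against 70.4 and 151 CPM in the other two 9-month controls, and Jun was at 387 CPM in that library. The same sum was also high in the other 9-month libraries of animals numbered 1, at 722 CPM in tumour-free sample 1 (against 90.8 and 130 CPM) and at 1252 and 973 CPM in the tumours of mutant 1 (against 114.5 and 116 CPM). The summed level of 5 hepatocyte markers (Alb, Ttr, Apoa2, Ahsg, Fgb) lay between 121243 and 145964 CPM in all controls. It was between 44989 and 59981 CPM in 2-month mutants and tumour-free tissue, and between 52068 and 83142 CPM in tumours. The markers were thus abundant in every group, but their sum was lower in every mutant sample than in every control. Tf, also planned as a marker, could not be matched by symbol. Of the 5 markers, 3 fell at 2 months, 2 fell in tumour-free tissue, where 1 rose, and 2 fell in tumours. The summed level of 7 macrophage markers was 192 to 479 CPM in controls, 535 to 842 CPM in mutant tissue without tumour and 420 to 1069 CPM in tumours, and 3, 7 and 5 of the 7 rose in the respective comparisons with controls. No marker of either list was at 0 in any library. The summed level of 6 stellate cell and fibroblast markers was 200.1 to 348 CPM in controls, 394 to 741 CPM in mutant tissue without tumour and 471 to 877 CPM in tumours, and 6, 3 and 5 of the 6 rose. Markers of dividing cells rose as well: all 4 that were tested in the 2-month mutants, 2 of 5 in the tumour-free samples, and 4 of 5 in the tumours. Over all genes, 22.3%, 18.1% and 13.8% rose in these comparisons, and 20.4%, 16.8% and 11.3% fell. In bulk samples, fewer cells of a type and less RNA per cell cannot be told apart, and the part of these shifts in the member results was not tested.

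In control liver the members spanned a wide range. Per kilobase of annotated exon, the highest 2-month control level was that of Lcat, a secreted enzyme that esterifies cholesterol on lipoproteins, at 374 CPM per kb. It was followed by Sc5d at 160.5, Ebp at 131 and Hmgcs1 at 98.7 CPM per kb. The lowest tested members were Idi1 at 0.682 and Soat1 at 0.579 CPM per kb. Exon length here joins the exons of all annotated transcripts of a gene, so the order depends on the annotation. Without division by length, Sc5d (781 CPM) was above Lcat (502 CPM). Npc1l1, the sterol uptake carrier of the gut, had 0 to 4 counts per library and did not pass the expression filter in any comparison, so 25 members were tested. A count of 0 in a library still allows up to 3 counts at that depth. Idi1 had 13 to 88 counts per library and has related copies, and Acat2 has a near-identical neighbour, so their counts are uncertain. Exons of Fdft1, Tm7sf2, Cyp51 and Lcat overlap those of other annotated genes, and the strand setting of the counting was not given in the sources used here.

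Spread between control animals was large for the enzymes at 2 months. Hmgcs1, which makes HMG-CoA for the mevalonate pathway, ranged from 212 to 920 CPM over the 6 controls, a coefficient of variation of 56.4%, against 13.8% over the 3 controls at 9 months. The lowest 2-month control level was in control 2 for 11 enzymes, in control 4 for 6 and in control 6 for 1. The summed level of the 18 enzymes was 2130 to 4478 CPM in 2-month controls, with a median of 2874, and 2817 to 3172 CPM in the 3 mutants of that age, which lay inside the control range. At 9 months it was 3141 to 3477 CPM in controls and 2537 to 2694 CPM in tumour-free tissue, with no overlap. The 4 tumours were at 3094 and 2402 CPM in mutant 1, 914 CPM in mutant 2 and 4163 CPM in mutant 3, which reached beyond the controls on both sides. Stretches of the pathway did not move alike in tumour-free tissue. From lanosterol to cholesterol the sum was 1470 to 1569 CPM, against 2156 to 2249 in 9-month controls. Squalene steps were higher, at 362 to 419 CPM against 298 to 339. Start and mevalonate steps overlapped, at 606 to 822 CPM against 674 to 890. These sums rest on TMM scaling and were not made with scaling by library size alone.

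**Figure D1:**
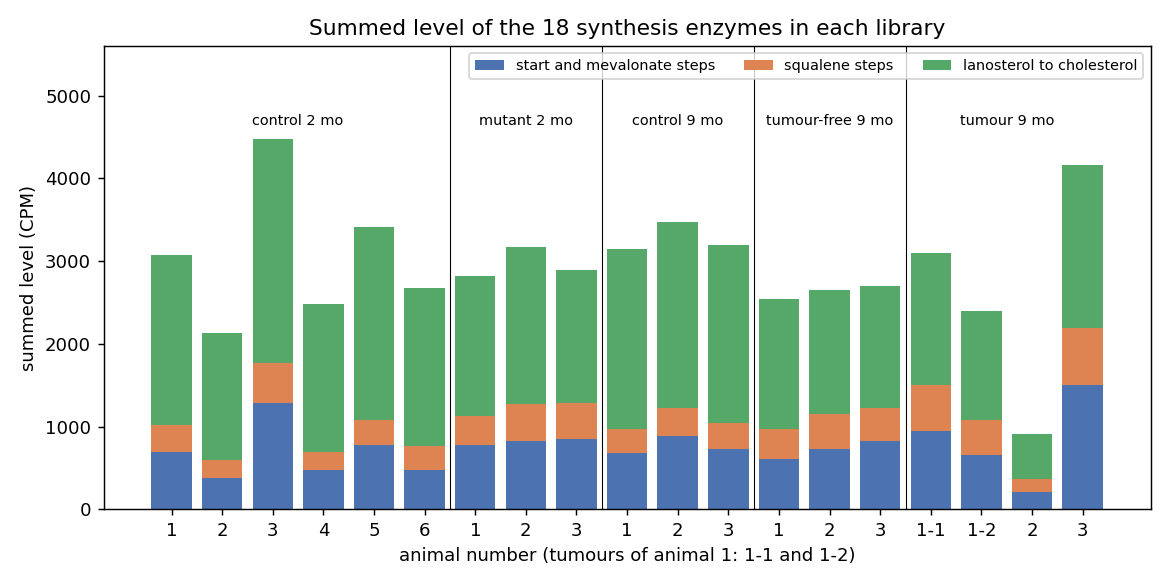
Summed level of the 18 cholesterol synthesis enzymes (y axis, CPM after TMM scaling) in each of 19 libraries, by group and animal number on the x axis; each stacked bar is a library, coloured by the 3 stretches of the pathway. The 2-month controls spread from 2130 to 4478 CPM and the tumours from 914 to 4163 CPM. Tumour-free tissue sits below all 9-month controls in the total, but above them in the squalene steps.

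RefSeq promoters (build GRCm38.p6, 250 bases before to 50 after the start of the gene) matched 21 of the 26 members, including 15 enzymes. Sterol-responsive promoters usually pair a sterol regulatory element, where SREBP2 binds, with a CCAAT box, where NF-Y binds. Searched on both strands, CCAAT was found in 19 of the 21 members (90.5%) and in 41.1% of all genes with a promoter in the table. The 8 letters TCACNCCA were found in 3 members, Hmgcs1, Msmo1 and Srebf2 (14.3%), against 4.97% of all genes, and the longer TCACNCCAC, which overlaps it, in Hmgcs1 alone (4.76%), against 1.44%. GGGCGG, a GC box, was in 18 members (85.7%), against 38.2% of all genes and 64.9% of the genes tested for expression. TGANTCA, a search wider than the AP-1 site because it allows any middle letter, was in 2 members, Msmo1 and Dhcr7 (9.52%), against 8.97% of all genes. CACGTG, an E-box, was in 5 members, Hsd17b7, Sc5d, Dhcr7, Scap and Insig1 (23.8%), against 8.09% of all genes and 11.4% of the genes tested for expression. For the remaining motifs the share in genes tested for expression was 42.6% (CCAAT), 4.61% (TCACNCCA), 1.45% (TCACNCCAC) and 6.85% (TGANTCA). These are matches of letters, not sites shown to be bound. Stretches before the first annotated exon are shown for members at different points of the pathway, with CCAAT or its reverse complement ATTGG, and TCACNCCA, in capitals.
Hmgcs1 (chr13:119690101-119690350, plus strand): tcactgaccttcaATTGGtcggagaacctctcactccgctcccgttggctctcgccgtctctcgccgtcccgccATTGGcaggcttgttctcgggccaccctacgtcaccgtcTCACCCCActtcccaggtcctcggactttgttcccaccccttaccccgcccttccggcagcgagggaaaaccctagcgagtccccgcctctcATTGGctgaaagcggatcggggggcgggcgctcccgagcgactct
Mvk (chr5:114444061-114444268, plus strand): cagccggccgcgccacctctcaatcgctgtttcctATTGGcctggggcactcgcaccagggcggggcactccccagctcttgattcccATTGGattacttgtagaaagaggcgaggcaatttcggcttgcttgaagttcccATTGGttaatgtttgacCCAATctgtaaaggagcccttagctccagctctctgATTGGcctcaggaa
Sc5d (chr9:42264301-42264550, minus strand): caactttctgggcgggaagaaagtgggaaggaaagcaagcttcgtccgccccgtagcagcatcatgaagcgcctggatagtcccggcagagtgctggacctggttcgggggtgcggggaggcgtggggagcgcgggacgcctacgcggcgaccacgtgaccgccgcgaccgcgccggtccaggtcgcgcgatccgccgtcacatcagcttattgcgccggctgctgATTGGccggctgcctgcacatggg
Srebf2 (chr15:82147019-82147180, plus strand): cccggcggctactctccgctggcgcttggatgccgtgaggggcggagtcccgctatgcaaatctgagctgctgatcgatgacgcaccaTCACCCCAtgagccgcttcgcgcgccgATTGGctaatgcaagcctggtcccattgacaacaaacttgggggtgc
Insig1 (chr5:28071162-28071362, plus strand): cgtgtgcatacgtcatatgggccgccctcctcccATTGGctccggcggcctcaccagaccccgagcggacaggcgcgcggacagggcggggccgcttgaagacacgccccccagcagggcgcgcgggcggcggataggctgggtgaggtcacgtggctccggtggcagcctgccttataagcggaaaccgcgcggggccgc
Lcat (chr8:105943403-105943589, minus strand): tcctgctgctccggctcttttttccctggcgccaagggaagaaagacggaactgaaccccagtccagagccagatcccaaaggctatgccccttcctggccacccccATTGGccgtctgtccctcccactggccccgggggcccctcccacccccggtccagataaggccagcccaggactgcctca
The Hmgcs1 stretch holds 3 CCAAT matches and the Mvk stretch 5, while those of Sc5d, Srebf2, Insig1 and Lcat hold 1 each.

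The first comparison asked how the transgene altered these genes 2 months after its induction. Members moved both ways: 5 of the 25 tested rose and 6 fell, with a median log2 change of -0.11, against 0.01 over all 13773 genes tested. Over all genes, 22.3% rose and 20.4% fell, so the members' counts were close to the background. Of the 18 enzymes, Fdps and Sqle rose while Cyp51, Tm7sf2 and Dhcr7 fell. The calls are from edgeR's quasi-likelihood test with Benjamini-Hochberg adjustment over all genes, at an adjusted p under 0.05, as are all adjusted p-values in the report.

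Among the 7 genes of the start and mevalonate steps, 1 rose at 2 months. Fdps (chromosome 3, 89093588 to 89101959, minus strand), which makes farnesyl pyrophosphate, the branch point to sterols and to prenylated proteins, was at 75.7, 93.7 and 81.0 CPM in the 3 mutants. In the 6 controls it lay between 20.4 and 45.5 CPM, with a median of 27.96, so every mutant was above every control. Its mean rose from 30.2 ± 10.2 CPM (SD, n = 6) to 83.5 ± 9.24 (SD, n = 3), a log2 change of 1.48 ± 0.23 (SE, adjusted p = 0.000474) or 2.78-fold. The other 6 did not pass. Mvk (mevalonate kinase) was at 27.4 ± 10.3 CPM in controls and 38.3 ± 2.99 in mutants, Mvd (which decarboxylates the doubly phosphorylated mevalonate) at 28.5 ± 10.9 and 39.2 ± 2.94, and Hmgcs1 at 453 ± 256 and 545 ± 45.8. Acat2 (the cytosolic thiolase that joins acetyl-CoA units) was at 67.5 ± 16.9 and 52.7 ± 5.50 CPM, Pmvk (phosphomevalonate kinase) at 72.8 ± 28.6 and 55.1 ± 7.07, and Idi1 (which interconverts the isoprenoid units) at 2.39 ± 0.966 and 2.83 ± 0.204.

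Of the 3 enzymes that make and close squalene, Sqle rose. Sqle (chromosome 15, 59315077 to 59331192, plus strand), squalene epoxidase, was at 154, 190 and 203 CPM in mutants and between 77.5 and 159 CPM in controls, with a median of 108. Control 3, at 159 CPM, lay above mutant 1, so the groups overlapped at 1 library each. The log2 change was 0.76 ± 0.20 (SE, adjusted p = 0.00931). Fdft1, squalene synthase, was at 107.8 ± 37.8 CPM in controls and 99.3 ± 2.96 in mutants, and Lss, which closes the ring to lanosterol, at 88.9 ± 32.1 and 128 ± 27.3. Neither passed.

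Of the 8 enzymes from lanosterol to cholesterol, 3 fell and none rose at 2 months. Dhcr7 (chromosome 7, 143823145 to 143848410, plus strand), the last reductase of a main route to cholesterol, was at 70.5, 83.3 and 64.9 CPM in mutants and between 93.3 and 233 CPM in controls, with a median of 129. No mutant reached the lowest control, and the log2 change was -0.93 ± 0.27 (SE, adjusted p = 0.0194). Cyp51, the lanosterol demethylase, was at 125, 124 and 154 CPM in mutants and between 164 and 293 in controls (median 208), a log2 change of -0.68 ± 0.17 (SE, adjusted p = 0.007). Tm7sf2, a sterol reductase that acts on the product of Cyp51, was at 106, 120 and 103 CPM in mutants and between 136 and 209 in controls (median 158), a log2 change of -0.60 ± 0.14 (SE, adjusted p = 0.00473). For Cyp51 and Tm7sf2, too, all 3 mutants lay below all 6 controls. Members named as lying apart at 2 months were picked by a test on the same libraries. How many of all genes lay apart there was not counted. The others had close means: Sc5d, the sterol desaturase before Dhcr7, was at 781 ± 184 CPM in controls and 719 ± 138 in mutants, Msmo1 (sterol methyl oxidase) at 234 ± 79.9 and 253 ± 16.03, and Ebp (sterol isomerase) at 303 ± 32.0 and 269 ± 27.1. Nsdhl and Hsd17b7, which complete the removal of the methyl groups at carbon 4, were at 142 ± 25.6 and 115 ± 0.429 CPM, and at 70.7 ± 14.6 and 61.4 ± 7.19 CPM.

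All 3 regulators passed the test at 2 months, Srebf2 and Insig1 upward and Scap downward. Srebf2 (chromosome 15, 82147181 to 82205379, plus strand), which encodes SREBP2, was at 98.4, 96.0 and 107 CPM in mutants, against 59.5 to 95.9 in controls (median 69.3), so the lowest mutant and the highest control nearly met. Its log2 change was 0.47 ± 0.13 (SE, adjusted p = 0.0108). Insig1, itself a target of SREBP2, was at 406, 482 and 292 CPM in mutants and between 161 and 366 in controls (median 218). Mutant 3 lay inside the control range, and the log2 change of 0.68 ± 0.25 (SE, adjusted p = 0.0468) was close to the threshold. Scap was at 131, 153 and 121 CPM in mutants and between 162 and 210 in controls (median 183), without overlap, a log2 change of -0.44 ± 0.11 (SE, adjusted p = 0.00807).

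Among carriers and esterifying enzymes, Stard4 and Lcat fell and Soat1 rose at 2 months. Stard4, a soluble carrier that moves cholesterol between membranes, was at 75.5, 85.3 and 73.5 CPM in mutants and between 126 and 230 in controls (median 150), a log2 change of -1.04 ± 0.18 (SE, adjusted p = 0.000906). Lcat (chromosome 8, 105939551 to 105943382, minus strand) was at 242, 234 and 157 CPM in mutants and between 422 and 591 in controls (median 502), a log2 change of -1.24 ± 0.17 (SE, adjusted p = 0.00013). Both sets of 3 mutants lay far below the controls. Soat1, the esterifying enzyme of macrophages and most tissues, was at 7.14, 9.64 and 12.8 CPM in mutants and between 3.73 and 6.59 in controls (median 5.99), a log2 change of 0.80 ± 0.21 (SE, adjusted p = 0.0111). The summed macrophage markers were likewise higher in every mutant (535 to 842 CPM) than in every control (234 to 479 CPM), and their part in the Soat1 value was not tested. Soat2, the form of hepatocytes and gut, was at 68.6 ± 7.25 CPM in controls and 60.9 ± 13.7 in mutants. No mutant had a count of Npc1l1.

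Leaving out single libraries ended 3 of these calls: Dhcr7 without mutant 1 or 3 (adjusted p = 0.058 and 0.0884), Soat1 without mutant 3 (adjusted p = 0.0814), and Insig1 without mutant 1 or 2 or control 1, 2, 4 or 5 (largest adjusted p = 0.193, without mutant 2). With scaling by library size alone, which moved the median of all genes from 0.01 to 0.29 on the log2 scale, 8 members rose and 4 fell, and the calls of Cyp51 (adjusted p = 0.0739) and Scap (log2 change -0.17, adjusted p = 0.166) were lost. In 1 fit over all 5 groups, the calls of Cyp51, Tm7sf2 and Insig1 were lost (adjusted p = 0.209, 0.144 and 0.0719). Those of Sqle, Srebf2, Scap, Insig1 and Soat1 were lost with the replicate number as a block. Dhcr7 and Insig1 lost theirs with no expression filter, and Insig1 also with RLE size factors. Without control 3, the control with high enzyme levels, 8 members rose and 6 fell.

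**Figure D2:**
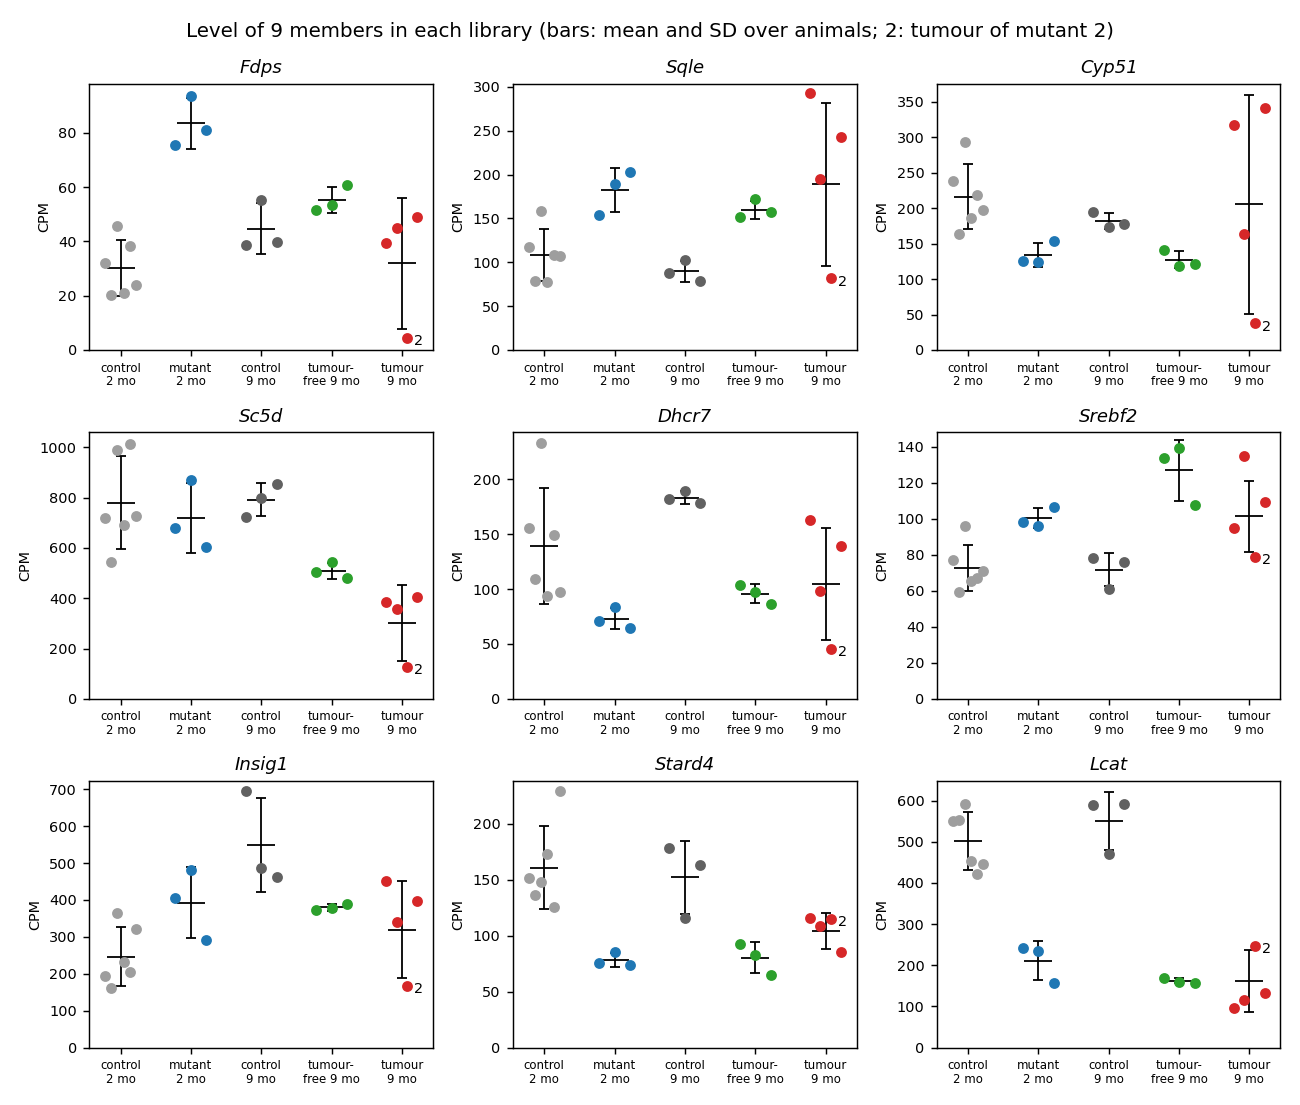
Level of 9 members (y axis, CPM after TMM scaling) by group on the x axis; points are libraries, lines the mean and SD over animals, and the tumour of mutant 2 is marked. At 2 months Fdps lies between 75.7 and 93.7 CPM in mutants, above all controls, while Lcat lies between 157 and 242 CPM, below all controls.

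At 9 months, tumour-free mutant tissue was set against controls of the same age. Members leaned downward: 5 of 25 rose and 8 fell, with a median log2 change of -0.36, against -0.01 over all 14352 genes tested, of which 18.1% rose and 16.8% fell. Mvk, Sqle, Lss, Srebf2 and Soat1 rose. Acat2, Pmvk, Cyp51, Tm7sf2, Sc5d, Dhcr7, Stard4 and Lcat fell. For each of these 13 genes the 3 tumour-free samples lay wholly outside the range of the 3 controls. The same held for Fdft1, Msmo1, Nsdhl, Ebp and Insig1, all lower, which did not pass. The 13 were picked by a test on the same samples, and how many of all genes lay apart in this way was not counted.

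In the mevalonate steps, Mvk rose and Acat2 and Pmvk fell. Mvk (chromosome 5, 114444269 to 114460591, plus strand) was at 25.9, 24.9 and 31.9 CPM in controls and 44.4, 60.1 and 56.9 CPM in tumour-free tissue, a log2 change of 0.96 ± 0.16 (SE, adjusted p = 0.00268) or 1.94-fold. Acat2 was at 93.0, 137 and 99.0 CPM in controls and 56.4, 61.7 and 65.2 in tumour-free tissue, a log2 change of -0.85 ± 0.18 (SE, adjusted p = 0.00755). Pmvk, the kinase that acts directly after Mvk, was at 73.6, 72.6 and 62.7 CPM in controls and 44.1, 46.3 and 54.6 in tumour-free tissue, a log2 change of -0.53 ± 0.14 (SE, adjusted p = 0.0194). The successive kinases of the pathway thus changed in opposite directions. Fdps did not pass here, at 44.7 ± 9.32 CPM in controls and 55.2 ± 4.78 in tumour-free tissue (SD, n = 3 each). Hmgcs1 was at 462 ± 63.9 and 450 ± 77.5 CPM, Mvd at 49.1 ± 17.1 and 48.6 ± 11.2, and Idi1 at 1.73 ± 0.965 and 2.03 ± 0.645.

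Sqle and Lss, which act one after the other, rose. Sqle was at 88.4, 102 and 78.8 CPM in controls and 152, 172 and 157 in tumour-free tissue, a log2 change of 0.83 ± 0.15 (SE, adjusted p = 0.00357). Lss was at 92.5, 100.3 and 92.7 CPM in controls and 123, 136 and 138 in tumour-free tissue, a log2 change of 0.47 ± 0.13 (SE, adjusted p = 0.0217). Fdft1, directly before Sqle, did not pass, at 130.03 ± 10.8 CPM in controls and 102 ± 13.0 in tumour-free tissue.

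Of the 8 later enzymes, 4 fell and none rose. Dhcr7 was at 182, 190 and 178 CPM in controls and 104, 97.8 and 86.3 in tumour-free tissue, a log2 change of -0.94 ± 0.13 (SE, adjusted p = 0.00109). Sc5d (chromosome 9, 42251595 to 42264256, minus strand) was at 722, 799 and 854 CPM in controls and 503, 543 and 479 in tumour-free tissue, a log2 change of -0.64 ± 0.15 (SE, adjusted p = 0.0105). These enzymes catalyse neighbouring late steps. Tm7sf2 fell from 174 ± 20.3 to 113 ± 10.8 CPM (-0.62 ± 0.15 on the log2 scale, SE, adjusted p = 0.0143), and Cyp51 fell from 181 ± 11.2 to 127 ± 11.7 CPM (-0.52 ± 0.14 on the log2 scale, SE, adjusted p = 0.0194). The other 4 had lower means in tumour-free tissue without passing: Msmo1 at 310 ± 25.9 CPM in controls and 251 ± 7.91, Nsdhl at 148 ± 26.4 and 108 ± 2.66, Hsd17b7 at 93.1 ± 12.4 and 66.6 ± 15.3, and Ebp at 310 ± 24.7 and 244 ± 20.04.

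Of the regulators, Srebf2 rose alone. It was at 78.0, 61.1 and 75.8 CPM in controls and 134, 139 and 108 in tumour-free tissue, a log2 change of 0.82 ± 0.16 (SE, adjusted p = 0.00484). Scap was at 139 ± 35.8 and 104 ± 14.1 CPM, and Insig1 at 548 ± 128 and 380 ± 9.19 CPM. Neither passed, and the mean of Insig1 was below that of controls, whereas at 2 months it was above.

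Stard4 and Lcat fell and Soat1 rose, as at 2 months. Lcat was at 590.4, 470 and 591 CPM in controls and 169, 160 and 158 in tumour-free tissue, a log2 change of -1.77 ± 0.15 (SE, adjusted p = 8.9e-05) or a level 0.294 times that of controls. Stard4 was at 178, 116 and 163 CPM in controls and 92.9, 83.0 and 65.3 in tumour-free tissue, a log2 change of -0.93 ± 0.20 (SE, adjusted p = 0.00857). Soat1 was at 5.67, 8.71 and 3.72 CPM in controls and 11.7, 11.2 and 10.6 in tumour-free tissue, a log2 change of 0.88 ± 0.29 (SE, adjusted p = 0.046). Beside this, all 7 macrophage markers rose, and their part in the Soat1 value was not tested. Soat2 was at 66.2 ± 12.3 CPM in controls and 70.5 ± 13.2 in tumour-free tissue. Npc1l1 had 0 to 3 counts in controls and 0 to 4 in tumour-free tissue.

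Without tumour-free sample 2, 8 members were called, and without control 1, the library with high immediate early genes, 10 were. Single libraries also ended the calls of Lss and Cyp51 (each without control 1 or 3 or tumour-free sample 2 or 3), Soat1 (without any of the 6 libraries except control 2), Pmvk (without tumour-free sample 1 or 2), Tm7sf2 (without tumour-free sample 2) and Sc5d (without control 3), with largest adjusted p over all alternatives of 0.463, 0.587, 0.134, 0.632, 0.356 and 0.262. With scaling by library size alone, which moved the median of all genes from -0.01 to 0.42 on the log2 scale, 6 members rose and 2 fell, and the calls of Acat2, Pmvk, Cyp51, Tm7sf2, Sc5d and Stard4 were lost. In 1 fit over all 5 groups the calls of Acat2, Mvk, Pmvk, Sqle, Lss, Cyp51, Tm7sf2 and Sc5d were lost. Without all 9-month animals numbered 1, 3 members rose and 8 fell.

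**Figure D3:**
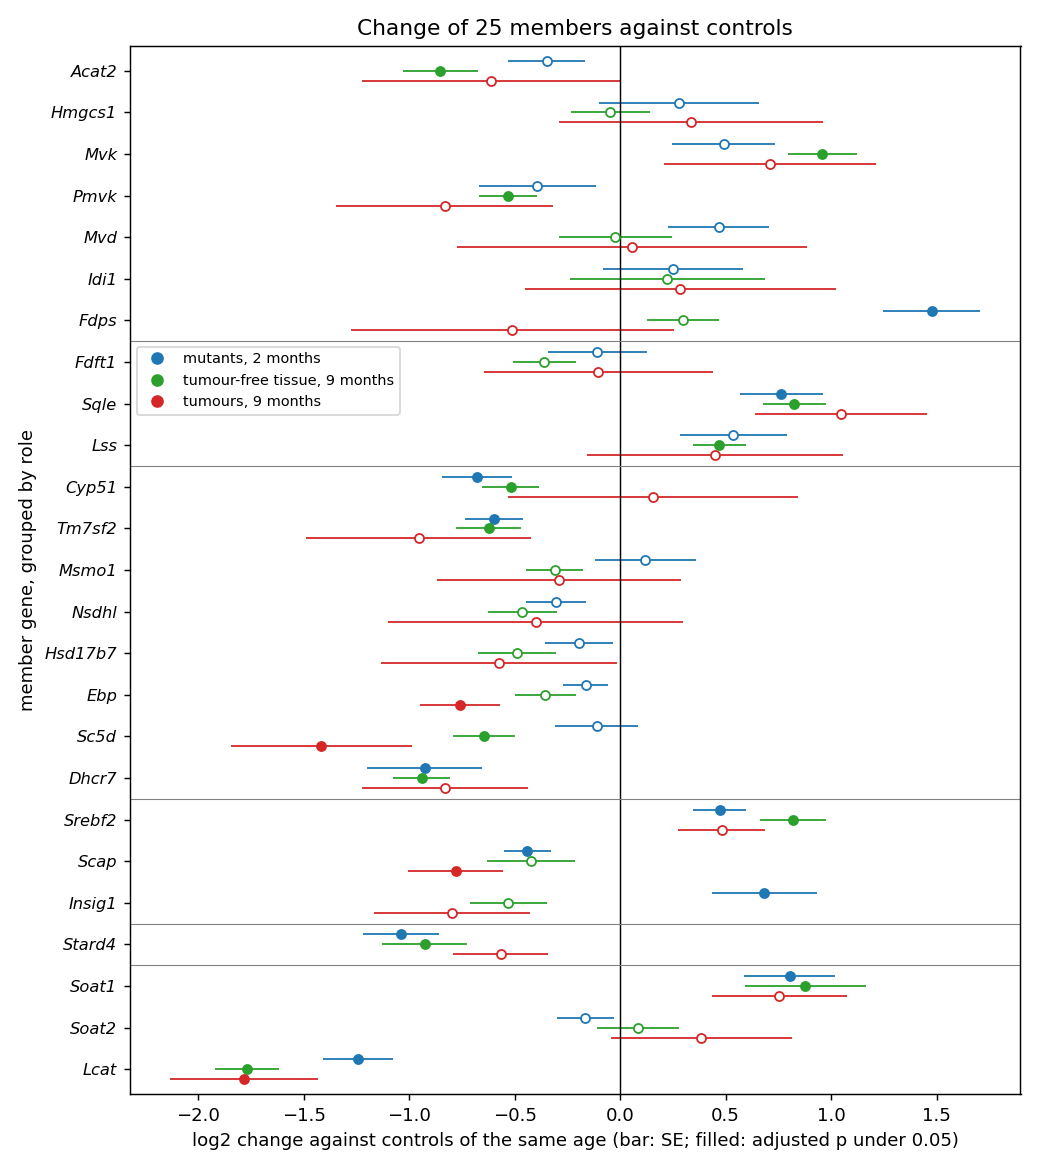
Fitted log2 change (x axis) of the 25 tested members (y axis, grouped by role) against controls of the same age for 2-month mutants, tumour-free tissue and tumours; bars are standard errors and filled points passed an adjusted p under 0.05. Lcat is at -1.24, -1.77 and -1.78, and the tumour bars are wider than those of the other comparisons for most enzymes.

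The third comparison set tumours against 9-month controls, with the 2 tumours of mutant 1 summed so that n = 3 animals. No member rose and 4 of 25 fell, with a median log2 change of -0.40, against 0.01 over all 14332 genes tested, of which 13.8% rose and 11.3% fell. Lcat fell from 550 ± 69.8 to 162 ± 74.5 CPM (-1.78 ± 0.35 on the log2 scale, SE, adjusted p = 0.0118). Ebp was at 313, 333 and 284 CPM in controls and at 205, 198, 192 and 165 in the tumours of mutants 1 (2 tumours), 2 and 3, a log2 change of -0.76 ± 0.19 (SE, adjusted p = 0.0274). Scap was at 166, 98.3 and 151 CPM in controls and 85.3, 89.5, 78.4 and 79.7 in the tumours in the same order, a log2 change of -0.78 ± 0.23 (SE, adjusted p = 0.0423). Sc5d was at 386, 355, 127 and 407 CPM in the tumours, all below the lowest control at 722, a log2 change of -1.42 ± 0.43 (SE, adjusted p = 0.049). For these 4 genes, picked by the same test, no tumour overlapped the controls. The same held for Tm7sf2, Dhcr7, Insig1, Srebf2 and Soat1, which did not pass. How many of all genes did not overlap was not counted.

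Each of these calls rested on single libraries. Without control 1 the sole call was Lcat, and without control 3, or without all 9-month animals numbered 1, no member was called. The Ebp call was also lost without control 2 or the tumour of mutant 2 or 3, Sc5d without control 2 or the second tumour of mutant 1, and Scap without the tumour of mutant 2 or 3. With scaling by library size alone, which moved the median of all genes from 0.01 to 0.47 on the log2 scale, Sqle, Soat1 and Srebf2 rose and Lcat fell.

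The tumours differed widely from each other in the enzymes. In the tumour of mutant 2, 17 of the 18 enzymes were below all 9-month controls and none was above, and the median enzyme stood at 0.218 of the control mean. In the tumour of mutant 3, 12 enzymes were above all controls and 4 below, with a median of 1.43 times the control mean, and 11 enzymes had there the highest level of all 19 libraries. The 2 tumours of mutant 1 lay between, with 10 and 12 enzymes below all controls, 6 and 3 above, and medians of 0.882 and 0.751. Against the tumour-free tissue of the same animal, the median enzyme was at 1.02 and 0.938 in the tumours of mutant 1, 0.291 in that of mutant 2 and 1.76 in that of mutant 3. With 1 library each from mutants 2 and 3, these differences between tumours have no replicate check. How many of all genes lay outside the controls, or were extreme among the 19 libraries, in each tumour was not counted. The contrast is therefore not shown to be particular to these enzymes.

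Among the tumours, that of mutant 2 had the lowest level of 17 enzymes and that of mutant 3 the highest level of 15. Fdps was at 39.5 and 45.1 CPM in the tumours of mutant 1, 4.34 in that of mutant 2 and 48.9 in that of mutant 3, against 38.7 to 55.4 in controls. Hmgcs1 was at 695, 446, 148 and 1065 CPM in that order, Mvd at 37.0, 35.9, 8.26 and 111, Cyp51 at 317, 164, 37.6 and 341, and Nsdhl at 100.3, 108, 23.3 and 213. The tumour of mutant 2 was lowest each time and that of mutant 3 highest. Sqle was at 293, 196, 81.6 and 243 CPM, so that 3 of the 4 tumours lay above the controls (78.8 to 102) and the tumour of mutant 2 lay among them. Ebp was the 1 enzyme whose lowest tumour level was not in mutant 2.

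Members outside the enzymes did not all follow that order. Insig1 was also lowest in mutant 2, at 452 and 340 CPM in mutant 1, 168 in mutant 2 and 397 in mutant 3. Srebf2 was at 94.6, 135, 79.0 and 109 CPM, a spread far smaller than that of most enzymes, and Stard4 at 116, 108, 115 and 85.9. Soat2 was at 151 CPM in the tumour of mutant 2, the highest of all libraries, against 44.5 to 62.9 in the other tumours, and Lcat at 247 CPM, against 96.7 to 133. Soat1 was at 10.4, 11.2, 9.91 and 10.4 CPM. Hepatocyte markers summed to 83142 CPM in the tumour of mutant 2, the highest of the tumours, and to 76828, 52068 and 62945 CPM in the others, while macrophage markers summed to 454 CPM there and to 420, 796 and 1069 CPM in the others. Bile duct markers summed to 377 CPM in the tumour of mutant 2, to 2378 and 3043 CPM in those of mutant 1 and to 62.9 CPM in that of mutant 3. Their part in the enzyme levels was not tested.

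**Figure D4:**
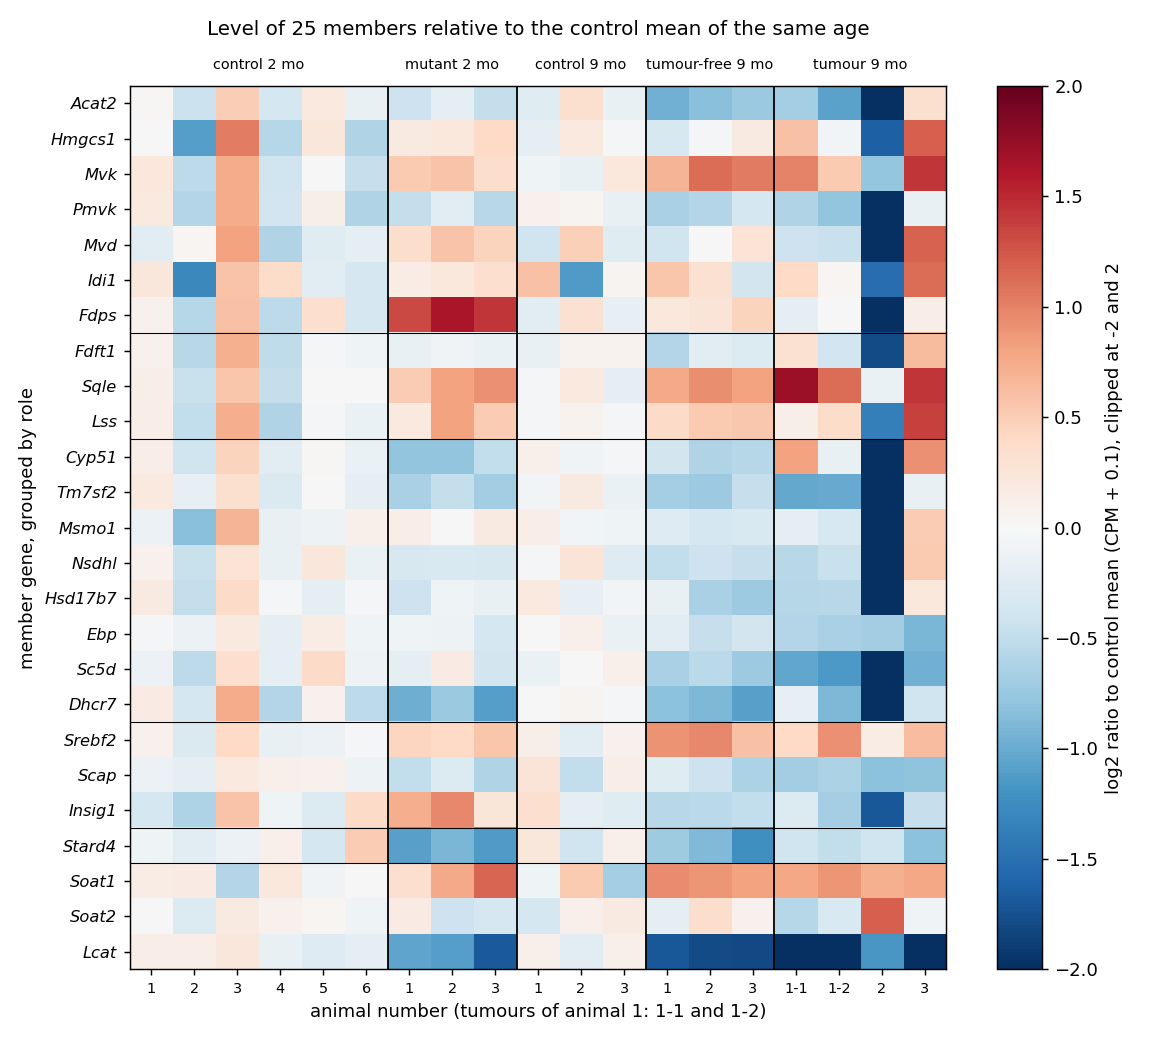
Level of 25 members in each library relative to the mean of controls of the same age, on a log2 colour scale clipped at both ends; columns are libraries by group and rows are members by role. Among tumours the column of mutant 2 is low across the enzymes (median 0.218 of the control mean) and that of mutant 3 high (median 1.43).

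Without the tumour of mutant 2, 4 members passed against controls, of which 2 (Lcat and Sc5d, lower) were among the 4 named above and 2 (Mvk and Sqle) rose. Tumours were also compared with the tumour-free tissue of the same 3 animals. No member passed in edgeR with or without the animal as a block, none had an unadjusted p under 0.05, and none passed in DESeq2 or limma voom. Over all 14566 genes, 0.0137% rose and 0% fell. Fitted log2 changes of members ran from -0.80 ± 0.76 (SE) for Fdps to 0.68 ± 0.70 for Cyp51, so differences of this size were not detectable with 3 animals. Without the tumour of mutant 2, 6 members had an unadjusted p under 0.05 and none passed.

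Controls were compared between the 2 times, which per the series' design text were also separate sequencing runs, so that time and run cannot be told apart. Of 25 members, 2 were higher at 9 months and none lower, against 7.29% higher and 4.64% lower over all 13545 genes tested. Insig1 was between 161 and 366 CPM in 2-month controls and at 695, 486 and 463 CPM in 9-month controls, without overlap, a log2 change of 1.14 ± 0.24 (SE, adjusted p = 0.0133). Acat2 was between 50.2 and 95.2 CPM in 2-month controls (median 64.6) and at 93.0, 137 and 99.0 CPM in 9-month controls, a log2 change of 0.69 ± 0.19 (SE, adjusted p = 0.0407). Leaving out 2-month control 1, 2, 4, 5 or 6, or 9-month control 2 or 3, ended the Acat2 call, and Insig1 was then the sole call.

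Whether the mutant effect differed between times was tested directly, as the difference of the effects. For tumour-free tissue against 2-month mutants no member passed in edgeR or limma voom, 3 had an unadjusted p under 0.05, and DESeq2 called Fdps and Insig1 lower. Over all 14707 genes tested, 0.462% were higher and 1.05% lower. For tumours no member passed in edgeR or limma voom, 4 had an unadjusted p under 0.05, and DESeq2 called Ebp and Insig1 lower, while over all 14701 genes 0.891% were higher and 1.73% lower. Without 2-month control 3, Fdps and Insig1 also passed in edgeR for tumour-free tissue, and without the tumour of mutant 2, Cyp51 passed as higher for tumours. A gene called at 1 time and not at the other is therefore not shown to differ between times. The tumour-free and tumour comparisons share their 3 controls.

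Set side by side, the fitted log2 changes at 2 months, in tumour-free tissue and in tumours were -1.24, -1.77 and -1.78 for Lcat, the member called in all 3. Srebf2, Sqle, Soat1, Cyp51, Tm7sf2, Dhcr7 and Stard4 were called at 2 months and in tumour-free tissue, in the same direction. Over all genes, 22.3% rose and 20.4% fell at 2 months, and 18.1% rose and 16.8% fell in tumour-free tissue. The share of all genes called alike in both was not counted, so the members are not shown to agree more than other genes. The mutant animals and controls of the 2 times are different animals, but the choice of members was made with these results known.

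Other genes of cholesterol handling, 37 in all, were tested beside the members. At 2 months 8 rose and 8 fell, close to the shares over all genes (22.3% and 20.4%). Vldlr, a lipoprotein receptor that is scarce in normal liver, was at 2.58 ± 0.895 CPM in controls and 35.1 ± 7.64 in mutants (3.77 ± 0.24 on the log2 scale, SE, adjusted p = 5.35e-07). Gramd1b, which carries cholesterol from the plasma membrane to the endoplasmic reticulum, was at 2.98 ± 0.734 and 24.4 ± 8.48 CPM (3.03 ± 0.24 on the log2 scale, SE, adjusted p = 3.15e-06). Acat1, a mitochondrial thiolase, fell from 562 ± 55.1 to 95.6 ± 37.6 CPM (-2.55 ± 0.23 on the log2 scale, SE, adjusted p = 7.66e-06), and Insig2, the second INSIG of liver, fell from 217 ± 44.6 to 73.5 ± 6.97 CPM (-1.55 ± 0.16 on the log2 scale, SE, adjusted p = 1.89e-05), whereas its relative Insig1 rose.

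In tumour-free tissue 6 of the 37 rose and 7 fell, again close to the shares over all genes (18.1% and 16.8%). Vldlr was at 6.90 ± 1.40 CPM in controls and 39.0 ± 4.64 in tumour-free tissue (2.49 ± 0.19 on the log2 scale, SE, adjusted p = 4.81e-05), and Acat1 at 609 ± 59.7 and 98.9 ± 29.5 (-2.63 ± 0.23 on the log2 scale, SE, adjusted p = 9.68e-05). Aacs, which makes acetoacetyl-CoA in the cytosol, fell from 297 ± 51.6 to 75.0 ± 9.39 CPM (-1.99 ± 0.18 on the log2 scale, SE, adjusted p = 0.000114), and Pltp, which transfers phospholipid to lipoproteins, from 352 ± 123 to 45.9 ± 4.59 CPM (-2.95 ± 0.27 on the log2 scale, SE, adjusted p = 0.000118). In tumours 4 of the 37 rose and 7 fell, against 13.8% and 11.3% over all genes. Stard5, a carrier related to Stard4, fell from 187 ± 8.51 to 60.7 ± 7.83 CPM (-1.65 ± 0.18 on the log2 scale, SE, adjusted p = 0.00157) and Pltp to 28.3 ± 12.5 CPM (-3.66 ± 0.42 on the log2 scale, SE, adjusted p = 0.00203). Gramd1b rose from 2.73 ± 0.771 to 16.4 ± 5.14 CPM (2.56 ± 0.33 on the log2 scale, SE, adjusted p = 0.00287) and Abcg1, a cholesterol exporter, from 9.31 ± 0.598 to 20.9 ± 3.20 CPM (1.14 ± 0.19 on the log2 scale, SE, adjusted p = 0.00613).

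None of the 37 passed between tumours and tumour-free tissue. Between controls of the 2 times 7 were higher and 2 lower at 9 months, against 7.29% and 4.64% over all genes. Pltp went from 112 ± 31.3 to 352 ± 123 CPM (1.64 ± 0.25 on the log2 scale, SE, adjusted p = 0.00267) and Aacs from 99.99 ± 34.1 to 297 ± 51.6 CPM (1.56 ± 0.26 on the log2 scale, SE, adjusted p = 0.00449), so the control levels of these genes in the 9-month comparisons were higher than those at 2 months. Vldlr (1.41 ± 0.26 on the log2 scale, SE, adjusted p = 0.00656) and Tmem97, a sterol-regulated membrane protein (0.55 ± 0.10 on the log2 scale, SE, adjusted p = 0.00567), were also higher in the older controls.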

How the data were processed

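Poly(A) RNA was sequenced from stranded libraries of 19 liver and tumour samples of 15 animals. The authors deposited raw counts per gene and library as whole numbers. Per the submitters' processing notes, STAR 2.6.1a, RSEM, bedtools 2.27.1, DESeq2 1.22.2 and GRCm38 were used. The sources used here do not give their roles or the strand setting of the counting, and the counts may be rounded RSEM estimates. Library totals (14294611 to 22062341 counts) limit the precision of low values, and floors cover counting error only. Gene coordinates and exon lengths were taken from GENCODE for GRCm38, and promoters from RefSeq (GRCm38.p6).

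Groups follow the labels, and replicates are separate animals. Genes were tested per comparison, using the libraries of the groups compared, in edgeR 4.0.16 under R 4.3.3 (its expression filter, TMM scaling, robust quasi-likelihood test, Benjamini-Hochberg adjusted p under 0.05 over all genes tested). The 2 tumours of mutant 1 were summed. Levels are CPM scaled by TMM over the 19 libraries, and group means and SDs are over animals. The script was checked on simulated counts with large changes and the same dispersion for every gene. That check does not cover smaller changes or groups as uneven as the tumours. All 26 members are named with their levels, with a log2 change where they passed. Of the other pathway genes, those with the 4 smallest adjusted p in a comparison are named. The members and lists were chosen with earlier results of these data known. Alternatives were DESeq2 1.42.0, limma 3.58.1 voom, other scalings, no filter, 1 fit over all groups, a replicate block, tumours kept separate and libraries left out.

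Replicate numbers pair samples in the comparison of tumours with tumour-free tissue, where they mark the same animal. Deviations from group means correlated at 0.0469 to 0.321 for samples of the same animal and at -0.262 to 0.0394 for others. Centring on the means of small groups ties these values to each other. Tumour-free samples and controls that share a number, but are different animals, reached -0.0214 to 0.307, so the contrast is not a test of an animal effect.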

Additional observations from a re-analysis of the deposited data

Results flagged for a closer look

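Mvd was at 49.7 CPM in 2-month control 3, far above the next control at 29.3 CPM (n = 6). In 2-month control 4, Npc1l1 was at 0.0775 CPM, which is 1 count, while the other 5 controls had none. Of 52 groups of values examined for such a lone sample, chance would flag about 1 in 20. Pltp had a larger fall in tumour-free tissue than in 2-month mutants, with a difference of the log2 changes of -1.81 (SE 0.39, edgeR adjusted p = 0.0304). That call was lost in 11 of 22 alternatives, among them scaling by library size alone, no filter, 1 fit over all groups and the omission of single libraries (largest adjusted p = 0.108). For tumours less 2-month mutants the difference was -2.50 (SE 0.47, edgeR adjusted p = 0.015) for Pltp and -1.86 (SE 0.46, edgeR adjusted p = 0.0441) for Vldlr, whose fitted rise was smaller in tumours. The Pltp call held in all 24 alternatives (largest adjusted p = 0.0499), while the Vldlr call was lost in 15 of 24, among them limma voom, library size alone, no filter and most omissions of a single control or 2-month mutant (largest adjusted p = 0.134). Control levels of Pltp and Vldlr were higher at 9 months than at 2 months, and time and sequencing run cannot be told apart.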

How the results depend on the processing

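No called member result changed direction under any alternative. The direction of members that were not called was not followed. Of 30 called member results, 7 kept their call in every alternative run (Fdps, Stard4 and Lcat at 2 months, Dhcr7, Srebf2 and Lcat in tumour-free tissue, and Insig1 between controls), and 23 lost it in at least 1. With a replicate block, 6 members passed at 2 months (1 higher, 5 lower), 14 in tumour-free tissue and 1 in tumours against controls, and 0 between tumours and tumour-free tissue. In the first 3 of these the labels do not tie same-numbered samples together, although immediate early genes were high in all 9-month libraries of animals numbered 1, and same-numbered samples correlated at -0.222 to 0.239, -0.0214 to 0.307 and -0.015 to 0.148. Leaving out 1 library gave 9 to 14 members at 2 months, 8 to 16 in tumour-free tissue, 0 to 4 in tumours against controls, 1 to 3 between controls, and 0 to 2 and 0 to 1 for the changes with time in tumour-free tissue and tumours. A single fit over all 5 groups gave 6 members in tumour-free tissue (2 higher, 4 lower), 9 in tumours (3 higher, 6 lower) and 1 between controls. Scaling by library size alone gave 8 in tumour-free tissue (6 higher, 2 lower). Leaving out all 9-month animals numbered 1 left 0 members in tumours. DESeq2 gave 2 members for each change with time. The cause of these shifts was not tested for any alternative. Low counts (Npc1l1 and Idi1) and few animals (6 in the 2-month controls, 3 in each other group) are among the limits.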
